A study of Homo sapiens with 4 samples.

Results

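The metallothionein family was followed through 8 listed genes, MT1A, MT1E, MT1F, MT1G, MT1H, MT1M, MT1X and MT2A, taken by their annotated symbols out of 20041 genes with a named probe. Of the 8 genes, 7 had a probe, 9 probes in all, and MT1A had none in the annotation used. The probes were read on 4 Illumina Expression BeadChip arrays of human embryonic stem cells, with 1 array for each condition. Cells in plain E8, a defined medium that keeps the cells pluripotent, labelled 24 h, were the untreated condition (E8). E8 medium with the vitamin B3 amide nicotinamide at 10 mM for 24 h gave the second (Nam), and E8 with the ROCK inhibitor Y27632 at 10 µM for 24 h the third (Y27632). The fourth was differentiated with BMP4 in E8 for 6 days as a control for mesoderm (Mesoderm), and no array of cells kept 6 days in E8 without BMP4 was analysed here, so that BMP4 and time in culture cannot be told apart. The labels disagree on the line, giving H9 as a characteristic and H1 in the growth protocol; both are established embryonic stem cell lines.

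Metallothioneins are small cytosolic proteins rich in cysteine that hold zinc and copper and also capture cadmium. Their genes lie side by side and are known for induction by zinc through MTF1, a zinc finger factor that binds metal response elements (MREs) in their promoters, and in many cells also by glucocorticoids and oxidative stress. The MT1 and MT2 forms are made in most tissues, whereas MT3 is known from brain and MT4 from stratified epithelium. The transcripts of MT1 genes are close paralogues, so a probe named for one may also capture another, and the specificity of the probes was not tested.

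In the reference annotation 16 metallothionein genes and pseudogenes, 11 of them protein coding, lie on chromosome 16 between BBS2 and NUP93, with MT2A towards BBS2 and MT1X next to NUP93. Upstream sequence was matched by symbol for 3 of the 8 listed genes, MT2A, MT1H and MT1X, and is shown because these genes were detected on the arrays and lay lower together on the Mesoderm array. MT1B, a neighbour whose probe was detected on no array, is shown beside them. Each line gives the 250 bases before the annotated start, 5′ to 3′ on the plus strand of GRCh38.p14, from RefSeq: chr16:56608334-56608583 for MT2A, chr16:56669564-56669813 for MT1H, chr16:56682220-56682469 for MT1X and chr16:56651636-56651885 for MT1B. Capitals mark the MRE core, searched as TGCACNC and TGCGCNC on both strands.
MT2A: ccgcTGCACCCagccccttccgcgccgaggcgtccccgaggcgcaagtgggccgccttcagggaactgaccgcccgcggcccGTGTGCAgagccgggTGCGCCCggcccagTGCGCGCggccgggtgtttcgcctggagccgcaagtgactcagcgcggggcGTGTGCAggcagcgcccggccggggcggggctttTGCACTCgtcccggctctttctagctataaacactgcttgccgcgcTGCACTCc
MT1H: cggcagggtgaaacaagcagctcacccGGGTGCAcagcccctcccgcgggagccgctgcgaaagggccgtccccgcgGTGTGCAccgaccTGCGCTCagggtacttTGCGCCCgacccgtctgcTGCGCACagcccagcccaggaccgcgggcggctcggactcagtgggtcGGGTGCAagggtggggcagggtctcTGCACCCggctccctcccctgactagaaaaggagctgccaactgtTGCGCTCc
MT1X: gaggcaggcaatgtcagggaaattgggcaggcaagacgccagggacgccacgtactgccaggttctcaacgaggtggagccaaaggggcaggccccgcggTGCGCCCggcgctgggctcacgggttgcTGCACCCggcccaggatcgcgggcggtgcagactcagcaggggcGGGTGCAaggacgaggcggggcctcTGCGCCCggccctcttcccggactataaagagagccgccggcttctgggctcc
MT1B: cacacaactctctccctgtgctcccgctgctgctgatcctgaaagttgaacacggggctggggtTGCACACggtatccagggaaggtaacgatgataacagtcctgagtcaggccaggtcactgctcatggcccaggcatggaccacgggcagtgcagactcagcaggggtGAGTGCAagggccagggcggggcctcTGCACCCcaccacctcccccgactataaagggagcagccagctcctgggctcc
The core was found 7 times before MT2A, 8 times before MT1H, 4 times before MT1X and 3 times before MT1B, with no overlap between matches. Of 35116 promoter windows of the same length in the table, 24.8% held at least 1 core, 1.58% at least 3 and 0.37% at least 4. The window of MT4, also detected on no array and not shown, held 3. A TATAAA box started at -30 in MT1X and MT1B and at -29 in MT2A, a motif found on the sense strand of 6.8% of windows, and the window of MT1H held none. All 3 detected genes and the undetected MT1B thus carry cores in these windows, as the map of MRE cores shows.

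**Figure D1:**
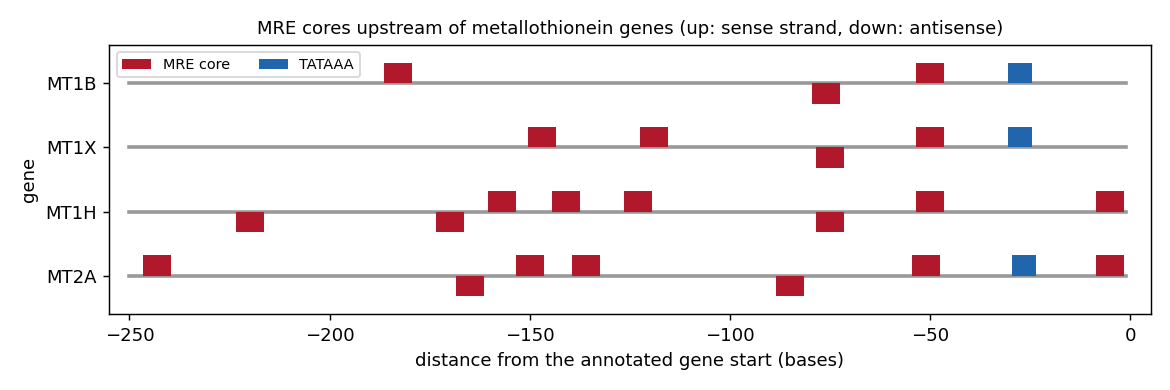
Positions of MRE cores (red) and TATAAA (blue) in the 250 bases before the annotated start of 4 metallothionein genes, in bases from the start, with boxes above the line on the sense strand and below it on the antisense strand. MT2A holds 7 cores, MT1H 8, MT1X 4 and MT1B 3, and a core starts at -54 in MT2A and at -53 in each of the other 3.

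Levels are log2 values after background correction and quantile normalization over the 4 arrays, and a probe was called detected at a detection p-value of at most 0.01 against the array's negative controls. Over the arrays 16509 to 18051 of 47296 probes were detected. The labels were checked with markers. The summed linear level of the 7 pluripotency markers with a probe lay between 34091 and 34860 on the E8, Nam and Y27632 arrays. On the Mesoderm array it was 12489, where SOX2 was not detected and the other 6 were. Of these, SALL4 stood at 11.27 on E8 and 11.19 on Mesoderm. All 8 mesoderm markers were detected on the Mesoderm array, EOMES and HAND1 at 12.78 and 12.53, against 0 to 2 of the 8 on the others. The Mesoderm array also detected 3 of 4 endoderm markers and 2 of 5 trophoblast or amnion markers, none of which the other arrays detected. Of ALB, APOA1 and TTR, markers of liver, a tissue rich in metallothioneins, 0 or 1 was detected on each array, and TTR on none. Each value comes from 1 array, so no test was run, differences carry no replicate check, and the number of arrays limits the precision. In RNA of whole cultures, fewer cells expressing a gene and less RNA per cell cannot be told apart.

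Of the 7 genes with a probe, 6 were detected on all 4 arrays: MT2A, MT1E, MT1F, MT1G, MT1H and MT1X. For MT1X the level was 10.73 on E8, 10.77 on Y27632, 9.88 on Nam and 6.90 on Mesoderm. MT1G stood at 12.15 on E8, 12.33 on Y27632, 11.69 on Nam and 9.02 on Mesoderm. For both genes E8 and Y27632 lay close together, Nam somewhat below them and Mesoderm far below all 3. The MT1H level by its brighter probe was 9.57 on E8, 9.65 on Y27632, 8.93 on Nam and 6.86 on Mesoderm. MT1F reached 11.94 on E8, 12.12 on Y27632, 11.74 on Nam and 9.46 on Mesoderm. Nam was nearer to E8 for MT1F than for MT1H. Values for MT1E, by its detected probe, were 10.75 on E8, 11.24 on Y27632, 10.17 on Nam and 9.13 on Mesoderm. The MT2 gene MT2A had 9.26 on E8, 9.25 on Y27632, 8.74 on Nam and 7.52 on Mesoderm. In each of the 6 genes Nam lay below E8 and Y27632 and Mesoderm lowest, and Y27632 ranked first in all of them except MT2A. The gap between E8 and Y27632 ran from 0.01 in MT2A, through 0.05 in MT1X and 0.07 in MT1H, to 0.49 in MT1E, and apart from that of MT1E it was below the spread between probes of one gene in this pair of arrays (SD 0.25).

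**Figure D2:**
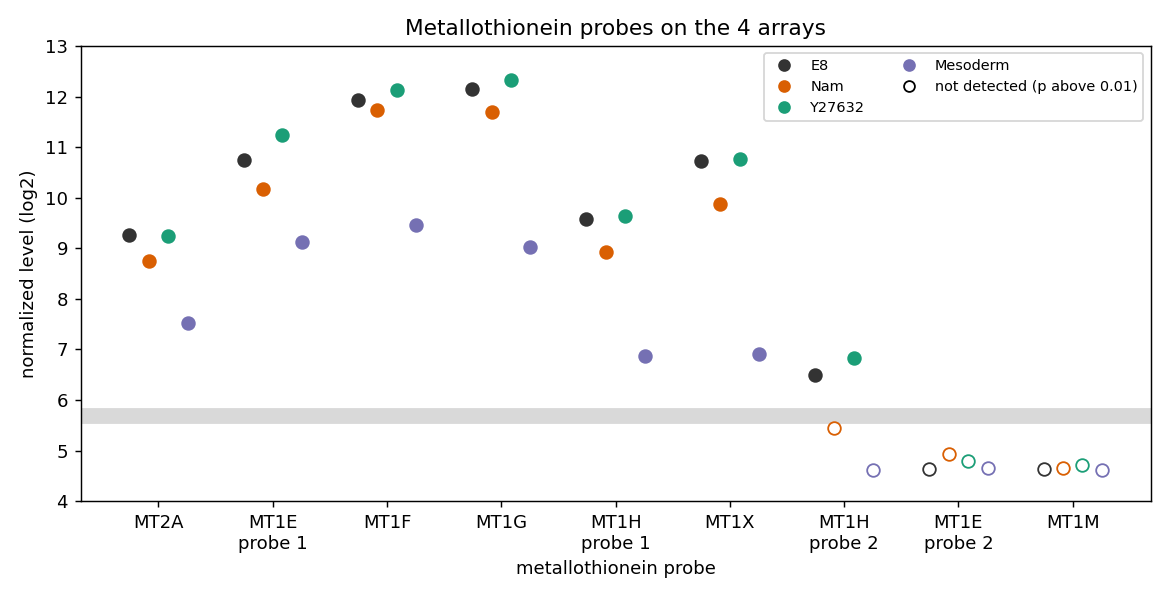
Normalized log2 level of each of the 9 metallothionein probes on the 4 arrays, 1 point per array, with open points where the probe was not detected; the grey band spans the detection limits of the 4 arrays, the dimmest detected probe of each (5.54 to 5.82). In each probe detected on all 4 arrays the Mesoderm point is lowest and the Nam point lies below E8 and Y27632. Levels of different probes cannot be compared with each other.

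MT1M and the second probe of MT1E were detected on no array. MT1M levels were 4.64 on E8, 4.71 on Y27632, 4.66 on Nam and 4.62 on Mesoderm, with detection p-values between 0.382 and 0.513. The dark MT1E probe lay between 4.64 and 4.94. The bright and the dark MT1E probe therefore disagree at every condition, and the MT1E values rest on 1 probe. MT1H had 2 probes that were detected, the dimmer at 6.50 on E8 and 6.84 on Y27632 and not detected on Nam (5.44, detection p of 0.0221) or Mesoderm (4.62, detection p of 0.519). Both MT1H probes thus put Nam and Mesoderm below the other arrays. Of the 13 other metallothionein genes and pseudogenes looked for, 5 had a probe, MT1B, MT1L, MT1IP, MT3 and MT4, and 0 were detected on an array. The lowest detection p-value among these 5 was that of MT1IP on Nam, at 0.0299.

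The largest differences in the family were those of the Mesoderm array, after 6 days with BMP4. All 6 measured genes were at least 2-fold lower on the Mesoderm array than on E8, where 11.4% of the 11649 genes compared were at least 2-fold lower, and 6 of 6 passed 1.5-fold, where the share of all genes was 22.5%. The median over the 6 genes was -2.59, with -0.02 over all genes. MT1X differed most, by -3.82 or 14.2-fold, and stood at rank 27 from the lowest of all genes compared. MT1G followed at -3.12 (8.70-fold, rank 72), MT1H at -2.71 (6.54-fold, rank 117) and MT1F at -2.48 (5.58-fold, rank 157). The smallest differences were those of MT2A at -1.75 (3.36-fold) and MT1E at -1.62 (3.08-fold), each still beyond the 5th percentile of all genes. Without background correction MT1X was at -2.93, MT1H at -1.90 and MT2A at -1.28, so the size of their folds depends on that step. The dimmer MT1H probe was at least 1.83-fold lower, a bound set by the dimmest detected probe of the Mesoderm array. In all 6 genes the difference was several times the SD between probes of one gene in this comparison, 0.42, a technical spread that does not cover differences between cultures. The summed linear level of the 8 mesoderm markers rose, from 315.3 on E8 to 21492 on Mesoderm. That of the 4 fibroblast markers rose from 963 to 4712 with DCN not detected. The endoderm sum rose from 84.5, with no marker detected on E8, to 2210, with AFP not detected. The trophoblast or amnion sum rose from 47.8, with no marker detected on E8, to 3270, with KRT7, CGA and CDX2 not detected. The sum of the pluripotency markers fell from 34860 to 12489. The part of such cell types in the metallothionein difference was not tested. Of the 6 genes 0 were higher, against 20.3% of all genes at 1.5-fold.

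Along the chromosome, the Mesoderm differences of MT2A and MT1E, the detected genes towards BBS2, were smaller than those of MT1F, MT1G, MT1H and MT1X, which lie together towards NUP93. The gap between the larger of the first pair, at -1.75, and the smallest of the second set, at -2.48, is 1 comparison of single probes with different brightness, and no test bears on it. The 4 flanking genes measured on Mesoderm were closer to E8 than any detected metallothionein. BBS2, a subunit of the complex that carries cargo to cilia, was at 0.52 on the Mesoderm array, NUP93, a nuclear pore protein, at -0.34, OGFOD1, a prolyl hydroxylase of a ribosomal protein, at -0.17, and NUDT21, an RNA processing factor, at -0.64. Of these 4 genes 1, NUDT21, was at least 1.5-fold lower on Mesoderm, a size that 22.5% of all genes reached. In Nam minus E8 the same 4 genes lay between 0.04 and 0.11. The flanking genes GNAO1, at 0.39, and SLC12A3, at 0.60, were detected on Nam but not on E8. GNAO1 was at least 1.15-fold higher, and for SLC12A3 no lower bound could be given.

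**Figure D3:**
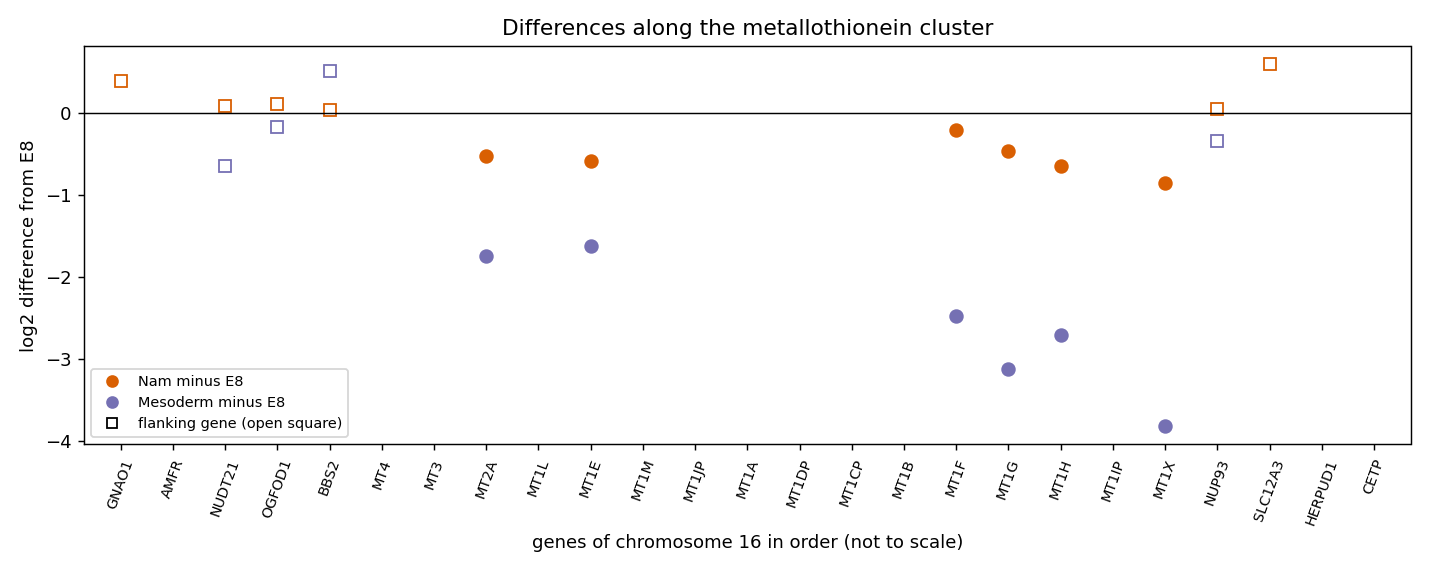
Log2 difference from E8 for Nam (orange) and Mesoderm (purple) in genes of chromosome 16 listed in annotation order, not to scale, with metallothioneins as filled circles and flanking genes as open squares; genes with no point were not measured in that comparison. The Mesoderm circles reach -3.82 at MT1X, while the 4 flanking genes measured in both comparisons lie between -0.64 and 0.52. GNAO1 and SLC12A3, not detected on E8, are drawn for Nam at their normalized differences of 0.39 and 0.60.

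Nicotinamide for 24 h went with smaller differences in the same direction. All 6 genes lay below 0 in Nam minus E8, with a median of -0.55 against 0.04 over the 11390 genes compared. MT1X, at -0.85 (1.80-fold), and MT1H, at -0.64 (1.56-fold), were the 2 members at least 1.5-fold lower, a size that 6.69% of all genes reached. None was higher by that size, which 4.93% of all genes reached. The dimmer MT1H probe, not detected on Nam, was at least 1.94-fold lower. MT1E at -0.58, MT2A at -0.52, MT1G at -0.45 and MT1F at -0.20 did not reach that size. MT1E lay just short of the limit of 1.5-fold and MT1X and MT1H past it. None reached 2-fold, where 1.56% of all genes were lower. Only MT1X was beyond the 5th percentile of all genes, -0.67, at rank 311. The SD between probes of one gene was 0.30 in this comparison, so that the MT1F difference was smaller than that spread and the others were larger. The mean signal before normalization was 620.5 on E8, 564.7 on Y27632 and 528.5 on Nam, and the summed level of the fibroblast markers 963, 952 and 554, with LUM and DCN not detected on these arrays. Of the 2 fibroblast markers detected, COL1A2 stood at 9.73 on E8 and 8.76 on Nam, and COL1A1 at 6.50 and 6.59. The lower sum on Nam thus rests on COL1A2 alone. Whether the mean signal or these markers bear on the family was not tested. Median scaling of the arrays in place of quantile normalization moved the median of all genes in Nam minus E8 to -0.15 and the count of members at least 1.5-fold lower to 5. Relative to that median MT1X lay at -0.87 and MT1H at -0.68, past 1.5-fold. MT1E at -0.58, MT2A at -0.57, MT1G at -0.48 and MT1F at -0.24 were short of it. Without background correction the count was 1. The shares of all genes at 1.5-fold under these settings are not given here.

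On the Y27632 array, at 24 h, the family lay near its level in plain E8. Of the 6 genes, 0 were at least 1.5-fold lower and 0 higher, with 2.03% and 1.58% of the 10989 genes compared past these limits. The median was 0.13, with 0.01 over all genes, and under median scaling it was -0.01. MT1E had the largest difference, 0.49 (1.41-fold higher), above the 95th percentile of all genes (0.36). It was followed by MT1G at 0.18, MT1F at 0.18, MT1H at 0.07 and MT1X at 0.05, with MT2A at -0.01. Under median scaling, which moved the median of all genes to -0.16, MT1H and MT1X turned to -0.10 and -0.09 and MT1E stood at 0.36.

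Both small molecules were given for 24 h in the same medium, at 10 mM for nicotinamide and 10 µM for Y27632, so the doses differ and the values describe the arrays only. In Nam minus Y27632 all 6 genes were below 0, with a median of -0.68 against 0.03 over 11173 genes. MT1E at -1.08, MT1X at -0.90, MT1H at -0.72 and MT1G at -0.64 were at least 1.5-fold lower, where 4.89% of all genes were, and 0 were higher, where 4.69% were. MT2A at -0.51 and MT1F at -0.38 did not reach that size. MT1E alone was at least 2-fold lower (2.11-fold), where the share of all genes was 1.07%. The dimmer MT1H probe was at least 2.45-fold lower on Nam. This comparison shares the Nam array with the comparison to E8, and MT1E, whose level was highest on Y27632, had a larger value here than there.

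**Figure D4:**
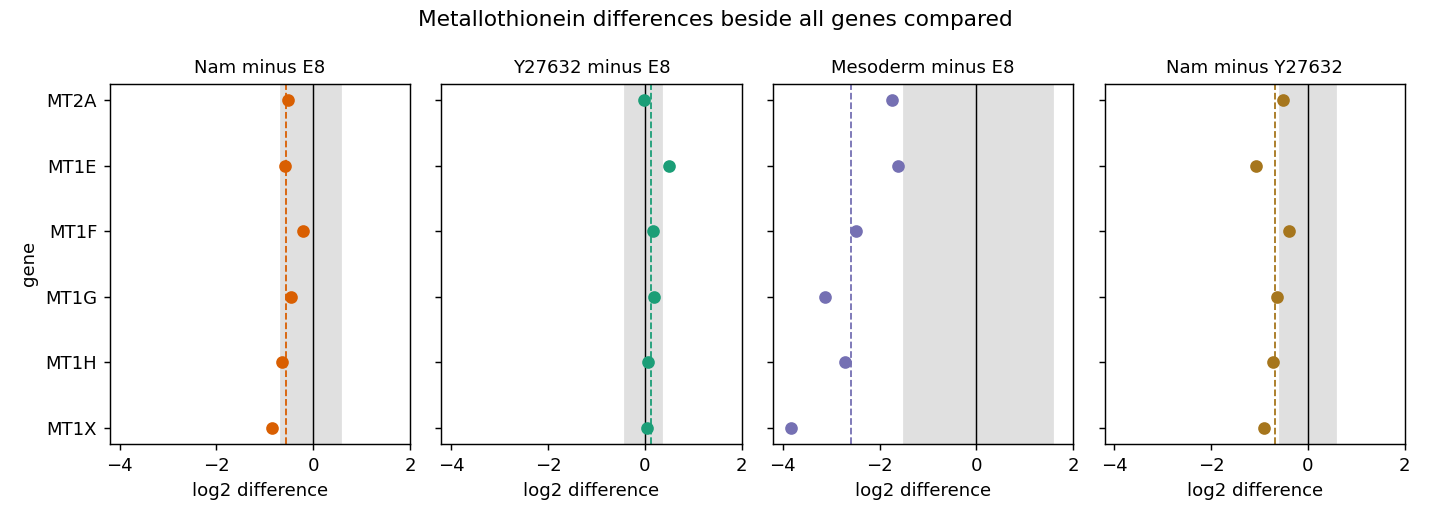
Log2 difference of the 6 measured metallothionein genes in each of the 4 comparisons, 1 point per gene, with the dashed line at their median and the grey band from the 5th to the 95th percentile of all genes compared. All points lie left of the band in Mesoderm minus E8 (median -2.59), while in Nam minus E8 only MT1X lies outside it.

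The regulator of the family and its other well-known target lay within 1.5-fold of E8 on each array. MTF1, the zinc-sensing activator of metallothionein genes, had levels of 8.24 on E8, 8.08 on Y27632, 8.28 on Nam and 7.97 on Mesoderm. These are RNA levels, and the activity of the MTF1 protein was not measured. SLC30A1, which exports zinc from the cell and is itself a target of MTF1, stood at 7.08 on E8, 7.22 on Y27632, 7.29 on Nam and 7.02 on Mesoderm by its brighter probe. The second SLC30A1 probe differed by -0.52 between Mesoderm and E8, against -0.05 for the first. Neither probe put SLC30A1 at 1.5-fold in any comparison. SLC39A10, an importer known to be repressed by MTF1, was at -0.13 in Nam minus E8 and -0.24 in Mesoderm minus E8.

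Counts in the following lists are at 1.5-fold and take a gene not detected on 1 array at its lower bound; over all genes, by normalized values, 6.69% were lower and 4.93% higher on Nam and 22.5% lower and 20.3% higher on Mesoderm. Counts near these shares say nothing particular of a list. Among the 10 zinc exporters of the SLC30 family 6 were measured against E8. On Nam 0 of 6 were past 1.5-fold and on Mesoderm 1 was lower, SLC30A3, which loads synaptic vesicles, at -1.06, while SLC30A6, of the Golgi, is bounded only at 1.37-fold lower or more. Of the SLC39 importers 9 were measured on Nam, where SLC39A8 was lower at -0.65 and SLC39A1, found at the plasma membrane, higher at 0.73. On Mesoderm 2 of 11 were higher, SLC39A1 at 1.08 and SLC39A8 at 0.86, and SLC39A14 was lower at -0.74. SLC39A2, not detected on E8, was at least 1.18-fold higher. SLC39A8 was thus below E8 on Nam and above it on Mesoderm, whereas the 6 metallothioneins were below E8 on both. On Y27632 the importer SLC39A7 of the endoplasmic reticulum was lower at -0.62.

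Copper handling genes had 0 of 12 members past 1.5-fold on Nam. On Mesoderm 3 of 13 were lower, with the metalloreductases STEAP2 at -1.48 and STEAP3 at -1.07 furthest, and 4 were higher, including ATP7B, a copper-exporting ATPase, at 1.17 and the cytochrome oxidase assembly factor COX11 by at least 1.99-fold. Iron handling genes had 0 of 5 past 1.5-fold on Nam and 3 of 6 on Mesoderm, where TFRC, the transferrin receptor, was at -1.44, FTL, a ferritin chain, at 1.04 and the iron exporter SLC40A1 at least 3.17-fold higher. The list of NRF2, the oxidative stress factor encoded by NFE2L2, with its inhibitor and targets had 0 of 11 past 1.5-fold on Nam. On Mesoderm 3 were lower (the targets GSR at -0.72 and TXNRD1 at -0.67 furthest) and 2 higher, NFE2L2 itself at 0.81 and the target SRXN1 at 0.67. HMOX1, which degrades haem and is also induced by metals, was at 0.38 in Nam minus E8. Genes around the glucocorticoid receptor had 0 of 8 past 1.5-fold on Nam, where KLF9 was not detected and at least 1.16-fold lower. On Mesoderm 1 of 8 was lower, SGK1 at -1.52, and 4 were higher, ZFP36 at 1.49 and ERRFI1 at 1.40 furthest. Hypoxia-induced genes had the list median nearest to that of the metallothioneins, -0.39 on Nam and -0.70 on Mesoderm, and 2 of 11 and 5 of 11 members at least 1.5-fold lower. NDRG1 was at -0.88 on Nam and 0.81 on Mesoderm, and PFKFB4, a regulator of glycolysis, at -0.41 and -1.89. ANKRD37 was at -0.60 on Nam and, not detected on Mesoderm, at least 2.85-fold lower there. On Mesoderm the median of the metallothioneins lay below that of each of these lists.

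**Figure D5:**
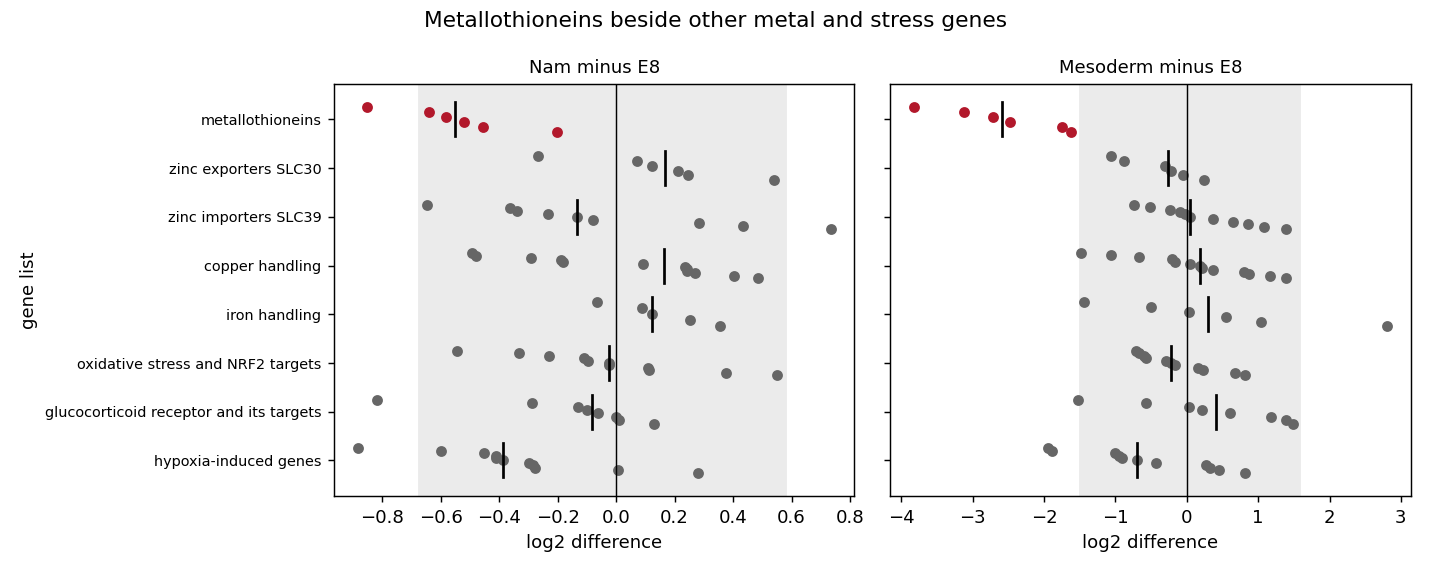
Log2 difference from E8 of the metallothioneins (red) and of genes in 7 other lists (grey), 1 point per measured gene, for Nam (left) and Mesoderm (right), with a black bar at each list's median and the 5th to 95th percentile of all genes shaded; the axes differ in range. The metallothionein medians are -0.55 and -2.59, and those of the hypoxia-induced genes -0.39 and -0.70.

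Likeness between genes was measured as the root mean square distance between their 3 differences from E8, among 9484 genes detected on all 4 arrays. The median profile of the 6 metallothioneins was -0.55 on Nam, 0.13 on Y27632 and -2.59 on Mesoderm. Nearest to it outside the family were YBX2, an RNA-binding protein of germ cells, at a distance of 0.07, SNTB1, a syntrophin, at 0.10, ANKRD35 at 0.11, RRAGD, a Rag GTPase, at 0.14 and PPP2R2B, a regulatory subunit of protein phosphatase 2A, at 0.14. YBX2 differed by -0.51, 0.06 and -2.50 in the same order. The members themselves were not the closest genes to their own median: 1 other gene lay nearer than MT1H, 12 nearer than MT1F, 46 nearer than MT1G, 139 nearer than MT2A, 211 nearer than MT1E and 328 nearer than MT1X. The 3 differences share the E8 array, and MT1X, the member furthest from the median profile, lay beyond it on both Nam (-0.85) and Mesoderm (-3.82). The POU5F1 (OCT4) level, for reference, was 12.08 on E8, 12.08 on Y27632, 11.94 on Nam and 9.77 on Mesoderm, and that of NANOG was 10.53, 10.53, 9.95 and 6.03 in that order.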

How the data were processed

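Per the labels' protocols, RNAiso Plus served to isolate RNA and the TargetAmp-Nano kit to label it. For 47296 probes the deposited non-normalized table gives the signal intensity beside its detection p-value, per the file headers. The authors' normalized log2 values were deposited in a second table, the method being not given in the sources used here, and the series matrix values equalled it (0 cells differed at a tolerance of 1e-06). That table is log2 with no centring of genes, and each column's median was 5.58. Samples were grouped by title, and columns by names matching the titles.

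Signals were processed with neqc of limma 3.58.1 in R 4.3.3 (normal-exponential background correction from the detection p-values, offset of 16, quantile normalization, log2), which understates differences of dim probes. Probes with 1 symbol numbered 30105, those with several 8 and those unnamed here 17183. Each gene was taken by the brightest of its probes detected (p at most 0.01) on at least 1 array, and compared where 1 of the 2 arrays detected it. Genes were called by size, at 1.5-fold and 2-fold. A difference with 1 array not detecting the probe is given as a lower bound. Code was tested on simulated data. The members, gene lists, marker lists and rules were chosen with earlier results of these data known. Named genes were all members, other metallothioneins with a probe, MTF1 and SLC30A1, label markers, up to 2 genes past 1.5-fold per list, direction and comparison, and the 5 genes nearest to the member median. List genes named outside that rule were chosen after their values were seen. They were SLC39A10, BBS2, NUP93, OGFOD1, and, where they did not meet it, NUDT21, GNAO1, SLC39A8, HMOX1, PFKFB4 and NDRG1. Alternatives were median scaling, no background correction, an offset of 50, the authors' values, other detection filters, a level of at least 8 and the mean over probes.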

Additional observations from a re-analysis of the deposited data

How the results depend on the processing

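With 1 array per condition, differences between cultures, RNA preparations and hybridisations are not separated from the conditions. No paired analysis was possible because each group has 1 sample. Counts and medians of the members in the 4 comparisons were recomputed under 9 alternatives. The count of members at least 1.5-fold lower in Nam minus E8, 2 as reported, was 5 with median scaling and 1 without background correction. Median scaling also moved the median of all genes in that comparison to -0.15. Relative to that median, only MT1X at -0.87 and MT1H at -0.68 were past 1.5-fold. The shares of all genes at 1.5-fold under these settings are not given, so the changed counts are no result about the family. The Mesoderm minus E8 median, -2.59, was -2.10 without background correction, which leaves background in both signals; the cause of the other changes was not tested. All other counts and medians stayed within 1.5 times or within the spread between probes. Medians ranged from -0.73 to -0.49 in Nam minus E8, from -0.77 to -0.61 in Nam minus Y27632 and from -0.01 to 0.18 in Y27632 minus E8. Of the values of single members, 54 of 54 stayed below 0 in each of Nam minus E8, Mesoderm minus E8 and Nam minus Y27632. Many of these repeat the main value and are no separate check. The detection filters and the level limit changed no member's value, and the mean over probes changed only that of MT1H. MT1H, MT1X and MT2A in Mesoderm minus E8 moved to -1.90, -2.93 and -1.28 without background correction, and MT1H in Nam minus Y27632 to -1.05 as the mean of 2 probes. Signal near background limits MT1M, the second probes of MT1E and MT1H, and the other metallothioneins.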
